A study of Homo sapiens with 21 samples.

Results

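DEAD box (DDX) and DEAH box (DHX) helicase genes were chosen by name from maps of HNRNPK binding sites. A binding site, or cluster, was a stretch of overlapping crosslinked reads reported by the caller PARalyzer, and it was included where its gene name was DDX or DHX followed by a number and at most 1 letter. The rule found 52 genes with 2004 of the 778762 clusters in 4 libraries, in which 18322 gene names appeared. DDX26B is an older symbol of INTS6L, which is not a helicase of these families, DDX12P is a pseudogene related to DDX11, and DDX58 is the older symbol of RIGI.

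The clusters came from PAR-CLIP of HNRNPK in cells of the established human line MDA-MB-231, a model of triple-negative breast cancer. Cells took up 4-thiouridine, proteins were crosslinked to RNA by UV light, and RNA bound to immunoprecipitated HNRNPK was trimmed with RNase T1 and sequenced, so that crosslinked uridines read as T-to-C changes. Parental cells and cells without the keratin 19 gene (*KRT19* KO, made with CRISPR/Cas9) were each split into a cytoplasmic supernatant and a nuclear pellet. Each of these 4 conditions had 1 library, so differences had no replicate check and no test was run. The sources used here do not say whether the KO cells were 1 clone. Read numbers are as deposited and not scaled to library size unless given as RPM or as a ratio. Values for the 4 libraries are given in the order parental cytoplasm, *KRT19* KO cytoplasm, parental nucleus and *KRT19* KO nucleus.

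DEAD and DEAH box proteins use ATP to unwind short RNA duplexes or to remodel RNA-protein complexes, and are named after residues of a conserved motif. Members drive steps of pre-mRNA splicing, the making of ribosomes, mRNA export, translation, mRNA decay and the sensing of viral RNA. HNRNPK is an RNA-binding protein with KH domains that prefers C-rich RNA. The clusters show where HNRNPK was crosslinked on the transcripts that encode the helicases and say nothing of the helicase proteins. Reads in a cluster depend on how much of the transcript was present as well as on how much of it was bound, and these cannot be told apart here.

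Helicase genes had 576, 406, 536 and 486 clusters in the 4 libraries, with 16922, 13472, 12214 and 9663 reads. The libraries held 5551612, 6216226, 3537577 and 3252800 reads in 201726, 177530, 200387 and 199119 clusters. Helicase clusters had a median of 10, 10, 12 and 12 reads and a minimum of 5 in each library, against medians of 10, 10, 11 and 11 over all clusters. T-to-C changes marked 60.9%, 61.8%, 67.1% and 74.9% of helicase reads, against 66.4%, 59.6%, 72.9% and 76.7% over all clusters.

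The labels were checked on marker genes. NEAT1, a nuclear noncoding RNA, had 226.4 and 203.8 RPM (reads per 1000000 cluster reads) in the cytoplasmic libraries and 789 and 1092 RPM in the nuclear ones. MALAT1, also a nuclear RNA, went the other way within each genotype, with 1229 RPM in the parental cytoplasm and 888 RPM in the parental nucleus, and 842 and 548 RPM in the KO. Over all genes, introns held 50.6% and 26.0% of reads in the cytoplasmic libraries and 80.4% and 75.7% in the nuclear ones. KRT19 had 1 cluster of 7 reads in the parental cytoplasm, 1 of 5 reads in the KO cytoplasm and none listed in the nuclei, which is too few to check the genotype. CD44, expressed by this line, had 380, 369, 330 and 434 RPM and vimentin (VIM) 37.3, 45.4, 47.2 and 21.2 RPM. Of the receptors that define triple-negative cells, PGR had no cluster listed, ERBB2 had 53 and 46 reads in the nuclear libraries alone, and ESR1 had 13.7, 4.18, 21.8 and 18.4 RPM.

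The parental cytoplasmic library stood apart from the others. It had 150 genome segments of at least 50000 nt that held 5 or more of its clusters and no cluster of the other 3 libraries, with 5326 clusters in all. The same count gave 29 segments with 172 clusters in the KO cytoplasm, 129 with 714 in the parental nucleus and 200 with 1141 in the KO nucleus. Clusters on contigs outside the chromosomes numbered 0 in the parental cytoplasm and 232, 269 and 221 in the others. All parental cytoplasmic clusters of DDX5, DDX39B, DHX16, DHX58 and DDX26B, and 22 of the 24 of DDX6, lie in such segments. DDX6 reaches past the edge of its segment and had 3 clusters in the parental nucleus. The segment of DDX39B and DHX16 on chromosome 6 spans 4556122 nt and held 419 clusters of the parental cytoplasm. Whether these genes were unbound elsewhere or missing for a technical reason was not tested, and the main shares of the parental cytoplasm are given with and without them. Leaving them out took the parental cytoplasmic helicases from 576 to 512 clusters and from 16922 to 14239 reads.

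Sequences are shown for the sites on which the results below turn, as windows of up to 30 bases of the RNA strand, 5′ to 3′, around the position with the highest PARalyzer signal. Capitals mark runs of 3 or more C, the base for which HNRNPK is known, and positions are on GRCh37 (hg19). The first 3 are the sites with the most reads, in the 3'UTR of DDX18 (chr2:118588550-118588579, plus strand), intron 11 of DDX17 (chr22:38887240-38887269, minus strand) and the 3'UTR of DDX21 (chr10:70744511-70744540, plus strand).
DDX18 3'UTR: ataatattttaattttaaatatCCCtCCCt
DDX17 intron 11: taccatattattCCCttatactatataata
DDX21 3'UTR: tagaaatttcacttcacataacttaaaaca
The next is a coding site of DDX47 in exon 7 (chr12:12976221-12976250, plus strand), shown because most KO cytoplasmic reads of the gene lay there, and chosen after its values were seen.
DDX47 coding: caatattatatttttattCCCtctaaattc
Further sites were found in all 4 libraries, in DDX17 intron 11 (chr22:38886858-38886887 and chr22:38885511-38885540), the DDX17 3'UTR (chr22:38880979-38881008 and chr22:38879692-38879721), DDX11 intron 5 (chr12:31240647-31240676), the DDX19B 3'UTR (chr16:70368299-70368328) and DDX18 intron 7 (chr2:118580371-118580400). The DDX17 site labelled as near the exon lies beside an exon of another annotated transcript inside intron 11, not at the end of that intron.
DDX17 intron 11, second site: cttagactcttcatCCCaCCCCCactcatc
DDX17 intron 11, site near the exon: aattatttttttctacaatcaCCCCaatta
DDX17 3'UTR: aatatattcaaaatgggcaaattttatttt
DDX17 3'UTR, last site: tgggctgcttctCCCCaatcctCCCtaaca
DDX11 intron 5: CCCCtttctcctttttacatttCCCtaCCC
DDX19B 3'UTR: ttacatccttaatatCCCCttaCCCCacag
DDX18 intron 7: cttttcaatttctCCCtCCCaCCCCtcctt
Sites of DHX15 intron 11 (chr4:24536114-24536143, minus strand), DHX8 (3'UTR, chr17:41602149-41602178, plus strand) and DHX33 (3'UTR, chr17:5344974-5345003) are shown because they decide a difference between libraries or, for DHX15, lead their gene, and that of DDX6 (3'UTR, chr11:118620436-118620465, minus strand) because the site lies in a segment empty elsewhere.
DHX15 intron 11: aattttCCCatttaCCCaattatttctcac
DHX8 3'UTR: atggtcaaaacctCCCtttCCCCactccaa
DHX33 3'UTR: acttttaacatagctgctcagggattaaat
DDX6 3'UTR: CCCttgtaccgatgcagctctctttctCCC
The window of DDX18 occurs 4 times in the genome, but its whole site occurs once, and all other windows shown occur once.

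Of the 52 genes, 40 had a cluster in every library. DDX59 and DHX40 were listed in 3 libraries, DDX12P, DDX39B and DDX6 in 2, and DDX4, DDX5, DDX26B, DDX41, DDX49, DHX16 and DHX58 in 1. Clusters per gene ranged from 1 to 213 with a median of 24.5. DDX10 had the most, but its gene of 275942 nt is long. Per length, the median helicase gene had 1.96 clusters per 10 kb and library (quartiles 1.08 and 2.50), against 1.38 (0.432 and 2.74) over 12638 protein-coding genes with a site. DDX17 led with 12.1 clusters per 10 kb, followed by DDX21 with 6.39, DHX9 with 6.22 and DHX15 with 5.25.

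**Figure D1:**
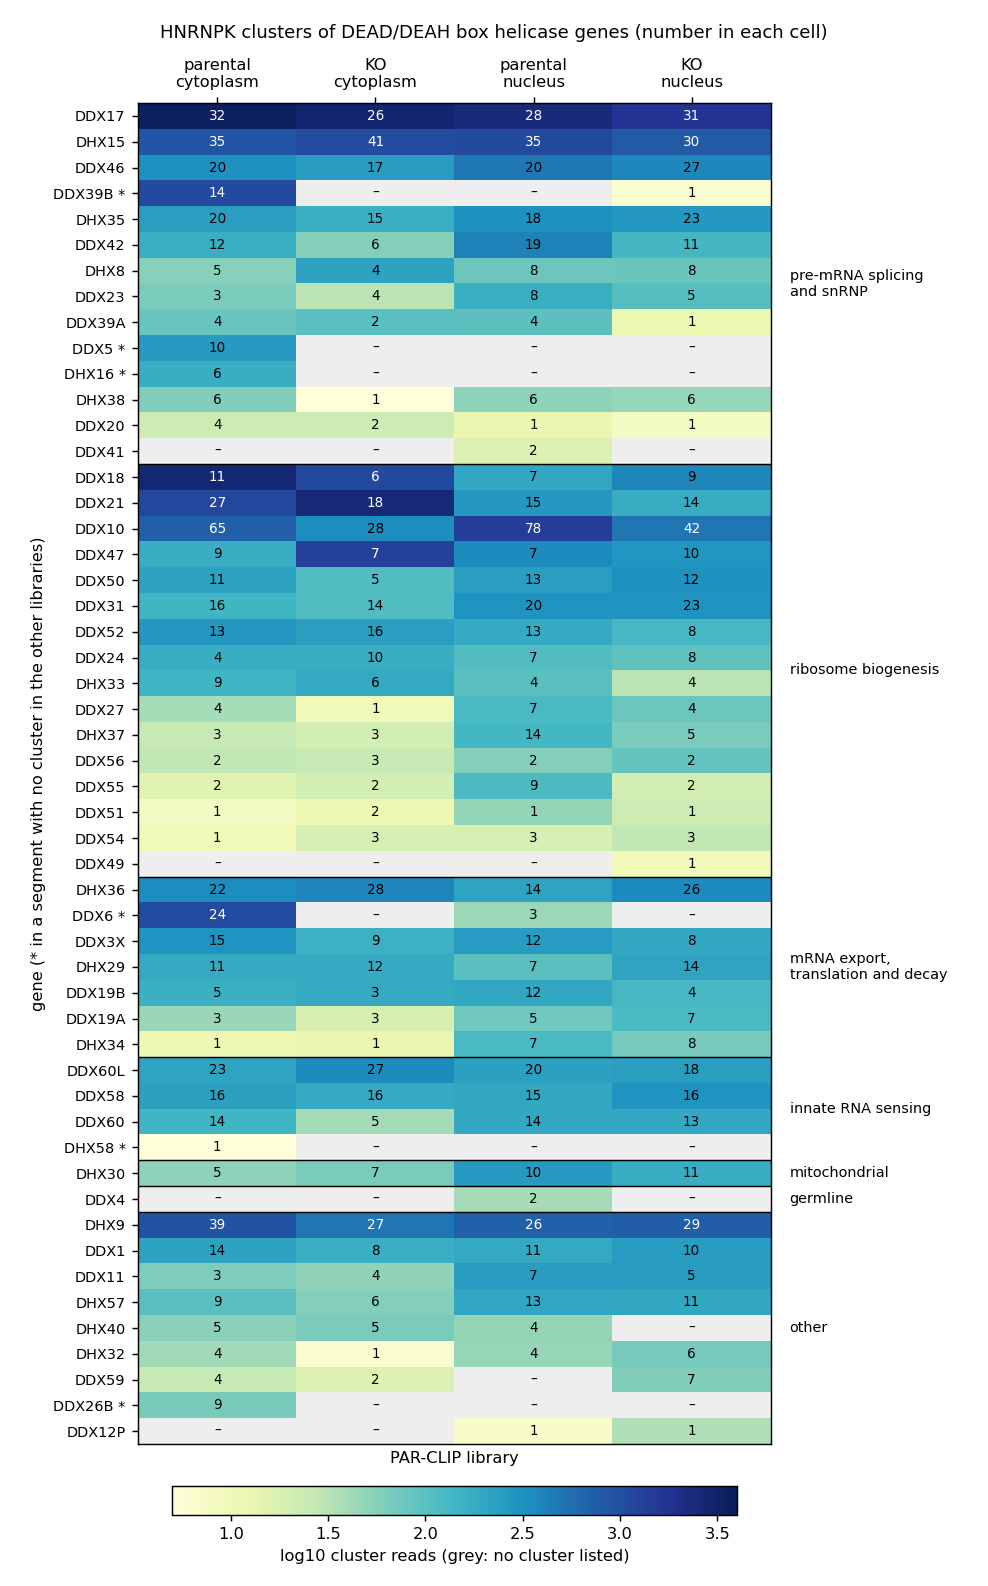
Number of HNRNPK clusters (in each cell) and log10 cluster reads (colour, grey where no cluster is listed) of the 52 genes (rows, grouped by role) in the 4 libraries (columns). DDX17, DHX15, DHX9 and DDX10 had 26 or more clusters in each library, and the genes with a star have all of their parental cytoplasmic clusters, or 22 of 24 for DDX6, in segments without a cluster in the other libraries.

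Helicases took 0.305% (95% Wilson interval 0.300 to 0.309), 0.217% (0.213 to 0.220), 0.345% (0.339 to 0.351) and 0.297% (0.291 to 0.303) of the reads of their libraries. Without the genes of the empty segments the parental cytoplasmic share was 0.264%, still above that of the KO cytoplasm. All such intervals cover counting error only. A single site, in the DDX18 3'UTR, gave 15.3% of helicase reads in the parental cytoplasm, and the most-read site gave 8.95%, 6.03% and 4.78% in the others.

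Helicase reads lay in 3'UTRs and introns in the cytoplasmic libraries and in introns in the nuclear ones. The 3'UTR share was 43.1% (42.4 to 43.9), 45.4% (44.6 to 46.2), 5.80% (5.40 to 6.23) and 8.98% (8.43 to 9.57). Over all genes it was 37.8%, 53.6%, 6.42% and 6.89%, so helicases were above the gene-wide share in the parental cytoplasm and below it in the KO cytoplasm. The first of these rested on the leading DDX18 site, since without the most-read helicase cluster the shares were 32.8% and 40.0%, below the gene-wide share in both cytoplasmic libraries. The gene-wide share kept all of its clusters here. Introns held 50.9%, 38.2%, 90.5% and 84.9% of helicase reads, against 50.6%, 26.0%, 80.4% and 75.7% over all genes. Coding sequence held 13.8% of helicase reads in the KO cytoplasm and 4.79%, 1.47% and 3.80% in the parental cytoplasm, the parental nucleus and the KO nucleus. Over all genes coding sequence held 6.65% in the KO cytoplasm and 2.71%, 2.82% and 5.55% in the same order of the others. In the KO cytoplasm the exon 7 site of DDX47 held 1118 of the 1862 helicase coding reads. Counted as clusters, 3'UTRs were 14.8%, 15.0%, 5.97% and 5.35%. Over all genes 3'UTRs were 13.0%, 20.4%, 4.80% and 5.37% of clusters, so in helicases and in all genes alike the cytoplasmic 3'UTR share was larger in reads than in clusters. Without the genes of the empty segments, the parental cytoplasmic shares of reads were 43.8% in 3'UTRs, 3.27% in coding sequence and 52.0% in introns.

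**Figure D2:**
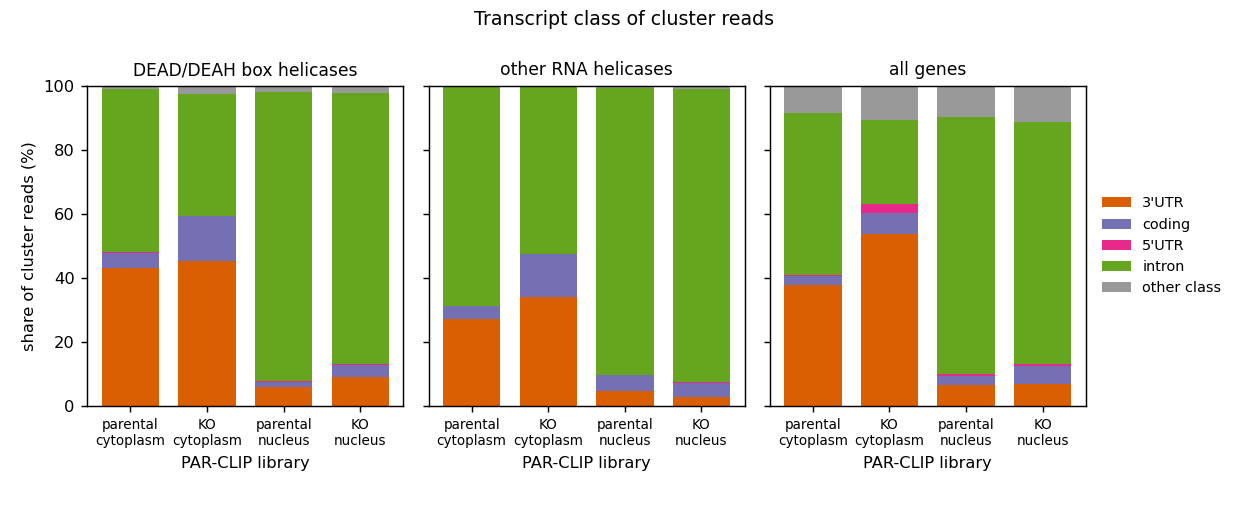
Share of cluster reads (%) by transcript class in the 4 libraries, for DEAD/DEAH box helicases named DDX or DHX, for RNA helicases with other names and for all genes. Helicase 3'UTR reads made up 43.1% and 45.4% in the cytoplasmic libraries and 5.80% and 8.98% in the nuclear ones.

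The 14 splicing and snRNP helicases, all with a site, held 40.5%, 35.4%, 42.3% and 36.9% of helicase reads, and 37.3% in the parental cytoplasm without the genes of the empty segments. DDX17, a splicing and transcription cofactor paralogous to DDX5, had 3414, 2859, 2399 and 1712 reads in 32, 26, 28 and 31 clusters. Exon and intron numbers throughout are by position on the canonical GENCODE transcript, which can differ from a cluster's deposited class. The reads of DDX17 fell into 2 blocks that the libraries shared. Intron 11, of 3940 nt, held 21 sites with 1200, 843, 1412 and 947 reads, which was 35.1%, 29.5%, 58.9% and 55.3% of the gene's reads. The 3'UTR in exon 13 held another 21 sites with 1755, 1728, 267 and 394 reads. The intron block was thus read in all 4 libraries, while most reads of the 3'UTR block came from the cytoplasmic libraries. How much nuclear RNA the cytoplasmic libraries carried was not tested. The first printed site of intron 11 alone had 851, 603, 737 and 462 reads. One site of intron 10 had 289, 264 and 553 reads and was not listed in the KO nucleus. Of the 38 helicase sites found in all 4 libraries, 8 were in DDX17.

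DHX15, which takes spent spliceosomes apart, had 896, 1065, 1124 and 805 reads in 35, 41, 35 and 30 clusters. Intron 11 held 214, 353, 463 and 335 of them, and its leading site had 187, 266 and 223 reads in the KO cytoplasm, parental nucleus and KO nucleus with no cluster listed in the parental cytoplasm. DDX46, which acts when the U2 snRNP joins the branch site, had 319, 245, 488 and 379 reads, and DHX35, a component of catalytic spliceosomes, had 238, 157, 320 and 275. Both were most read in the parental nucleus. DDX42, an SF3b-associated helicase, had 162, 58, 412 and 133 reads, fewer in the KO than in the parental library of each fraction. DHX8, which releases spliced mRNA, had 56, 218, 79 and 81 reads, and 159 of the KO cytoplasmic reads were in a 3'UTR site listed in that library alone.

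DDX5, the paralog of DDX17, had 260 reads in 10 clusters of the parental cytoplasm and none listed elsewhere, with 122 reads in coding sequence, 10 in the 5'UTR and 128 in introns. DDX39B (UAP56), which loads splicing and export factors, had 1102 reads in 14 clusters there, 775 of them in clusters deposited as intronic and 211 in clusters deposited as coding, and 6 reads in the KO nucleus in a cluster on an alternate contig. DHX16, needed to activate the spliceosome, had 171 reads there, 136 of them in the 3'UTR. These 3 genes lie in empty segments, so a difference between conditions and a difference of the library cannot be told apart for them. DDX39A, whose sequence is close to that of DDX39B, had 82, 103, 96 and 11 reads, of which 72, 95, 96 and 11 were in introns. Whether the authors' mapping split reads between the paralogs was not tested. The rest of the group, DDX20, DDX23, DDX41 and DHX38, had 8 or fewer clusters per library, and DDX41 was listed in the parental nucleus alone, with 2 clusters of 17 reads.

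The 16 ribosome biogenesis helicases, all with a site, held 34.6%, 46.6%, 30.2% and 26.0% of helicase reads, and 41.1% in the parental cytoplasm without the genes of the empty segments. Their 3'UTR share of reads was 67.1% and 61.7% in the cytoplasm and 7.59% and 12.5% in the nucleus, against 31.2%, 40.1%, 6.32% and 11.8% in the splicing group. Most of these 3'UTR reads were in DDX18 and DDX21 in the cytoplasmic libraries. DDX18, a nucleolar helicase of ribosomal RNA processing, had 2727, 1131, 197 and 384 reads. Its printed 3'UTR site had 2589 reads in the parental cytoplasm, 1062 in the KO cytoplasm, none listed in the parental nucleus and 170 in the KO nucleus, from 853, 513 and 31 unique reads. Per exon length DDX18 stood first in the parental cytoplasm with 60.2 exonic RPM per kb, ahead of DDX17 with 32.1 and DDX21 with 20.6. In the KO cytoplasm the order was DDX21 with 43.1, DDX47 with 40.6, DDX17 with 27.9 and DDX18 with 21.9.

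DDX21, a nucleolar helicase linked to RNA polymerase I and ribosomal RNA processing, had 1158, 2565, 284 and 175 reads. Its 3'UTR held 17 sites with 998, 2435 and 14 reads in the first 3 libraries and none listed in the KO nucleus. The printed site had 680 and 1206 reads in the cytoplasmic libraries, and another 3'UTR site had 931 reads in the KO cytoplasm and no cluster listed in any other library. Unlike the 3'UTR sites of DDX17, those of DDX21 thus were read almost wholly in the cytoplasmic libraries.

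DDX47, which acts in the processing of the small subunit's ribosomal RNA, had 173, 1310, 357 and 286 reads. Its exon 7 coding site, within an exon of 117 nt, had 1118 reads from 513 unique reads in the KO cytoplasm, 19 and 39 in the nuclei and no cluster listed in the parental cytoplasm. A site in the intron that follows had 293 and 127 reads in the nuclear libraries and none listed in the cytoplasmic ones. A coding site in exon 8 had 70, 146 and 32 reads in the parental cytoplasm, KO cytoplasm and KO nucleus. The gene thus had different leading sites in the KO cytoplasm and in the nuclei.

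DDX10, a nucleolar helicase, had 715, 343, 1421 and 505 reads in 65, 28, 78 and 42 clusters, spread over long introns. Intron 13, of 114983 nt, held 66 sites, and none of the gene's sites dominated. DDX31 had 143, 114, 297 and 296 reads and DDX52 had 280, 238, 180 and 130. In the cytoplasmic libraries 251 and 191 of the DDX52 reads were in its 3'UTR. DHX33, which promotes ribosomal RNA synthesis, had 143, 187, 99 and 31 reads, and a 3'UTR site listed in the KO cytoplasm alone gave 118 of the 187. DHX37 had 26, 20, 134 and 65 reads and DDX55 15, 20, 120 and 20, both with the most in the parental nucleus. DDX24, DDX27, DDX49, DDX50, DDX51, DDX54 and DDX56 had 13 or fewer clusters per library, and DDX49 was listed in the KO nucleus alone, with 1 cluster of 10 reads.

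**Figure D3:**
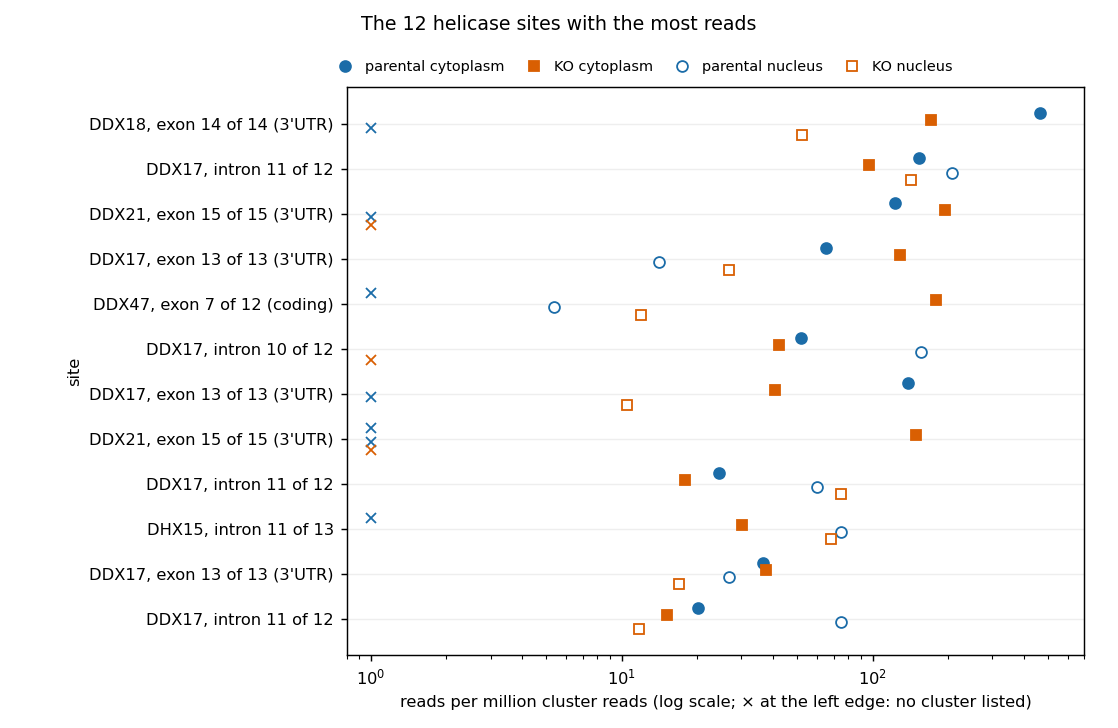
RPM (reads per 1000000 cluster reads, log axis) of the 12 helicase sites with the most reads, with 1 point per library and a cross at the left edge where no cluster was listed. The leading DDX18 3'UTR site had 466 RPM in the parental and 171 RPM in the KO cytoplasm, and the DDX47 coding site had 180 RPM in the KO cytoplasm with no cluster in the parental cytoplasm.

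Of 9 listed helicases of mRNA export, translation and decay, 7 had a site, and they held 12.5%, 6.90%, 8.27% and 11.1% of helicase reads. DDX6 gave 1078 of the 2116 parental cytoplasmic reads, and without the genes of the empty segments the share there was 7.29%, close to that of the KO cytoplasm. DHX36, which resolves G-quadruplexes, had 348, 381, 214 and 355 reads in 22, 28, 14 and 26 clusters. DDX3X, a helicase of translation initiation, had 295, 156, 257 and 188 reads, many of them in intron 2. DHX29, which helps ribosomes scan structured leaders, had 179, 181, 99 and 210. DDX19B, a nuclear-pore helicase of mRNA export, had 160, 181, 196 and 129 reads, and its printed 3'UTR site gave 139 and 165 of them in the cytoplasm. Its neighbour and close copy DDX19A had 45, 18, 75 and 124, and reads could have been split between them. DHX34, a factor of nonsense-mediated decay, had 11 and 12 reads in the cytoplasm and 125 and 69 in the nucleus. DDX6, a decapping activator of P-bodies, had 1078 reads in the parental cytoplasm, 854 of them in its 3'UTR, 44 in the parental nucleus and none listed in the KO, and most of its clusters lie in an empty segment.

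The innate RNA sensors DDX58 (RIG-I) and DHX58 (LGP2) with DDX60 and DDX60L held 3.48%, 4.31%, 5.04% and 7.52% of helicase reads, nearly all outside 3'UTRs, whose share was 0.849%, 2.41%, 1.46% and 5.64%. DDX58 had 228, 181, 193 and 296 reads, most of the cytoplasmic ones in intron 1. DDX60L had 214, 359, 231 and 243 and its paralog DDX60 142, 40, 192 and 188. DDX60 was thus lowest in the KO cytoplasm, also for the size of the libraries. DHX58 had 1 cluster of 5 reads, in the parental cytoplasm.

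DHX30, the 1 of 2 mitochondrial helicases with a site, had 51, 66, 262 and 167 reads. DDX4, a germline marker (VASA), had 39 reads in 2 intron clusters of the parental nucleus, and 2 other germline helicases had none. Among the 9 genes outside the role lists or with other functions, DHX9 (RNA helicase A) had 902, 503, 700 and 766 reads in 39, 27, 26 and 29 clusters. DDX11, a DNA helicase of sister chromatid cohesion, had 62, 50, 247 and 248 reads, of which the printed site of intron 5 gave 45, 31, 171 and 164. Outside that site 17, 19, 76 and 84 reads were left, so the gene was also higher in the nuclear libraries without it. DDX12P, a near copy of DDX11, had 7 and 35 reads in the nuclear libraries, and reads could have been shared between the copies. DDX26B had 67 reads in the parental cytoplasm, in an empty segment, and DDX1, DDX59, DHX32, DHX40 and DHX57 had 14 or fewer clusters per library.

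To compare libraries, each gene's RPM in one library was divided by its RPM in the other, on a log2 scale, and the median of all genes tested was subtracted. A gene was tested where it had a cluster in both libraries and at least 100 reads in the pair, and called higher or lower where it was 2-fold or more from that median. The median of all genes before centring was -0.04 for KO versus parental cytoplasm, -0.11 for KO versus parental nucleus, -0.52 for parental cytoplasm versus nucleus and -0.52 for KO cytoplasm versus nucleus. The 4 comparisons share libraries, so they are given side by side and not as support for each other. Genes tested were those read well enough in either library, so no count below stands for all 52 genes.

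In the KO cytoplasm relative to the parental cytoplasm, 29 helicases were tested, of which 3 (10.3%) were called higher and 6 (20.7%) lower. Over all 7541 genes, 20.2% were called higher and 17.4% lower. The median of the helicases was -0.38, within the quartiles of all genes (-0.72 and 0.80). The higher genes were DDX47 (210.7 against 31.2 RPM, 6.94-fold, log2 2.80, exact counting interval 2.57 to 3.03), DHX8 (log2 1.84, 1.41 to 2.29) and DDX21 (log2 1.02, 0.92 to 1.12). The lower ones were DDX60 (log2 -1.95, -2.50 to -1.44), DDX42 (log2 -1.61, -2.07 to -1.17), DDX18 (log2 -1.40, -1.50 to -1.29), DDX10 (log2 -1.19), DDX50 (log2 -1.09) and DDX3X (log2 -1.04). Without centring the split was 2 higher and 7 lower, against 19.4% and 18.4% of all genes, as DDX21 at 0.98 was no longer among the higher and DHX9 at -1.01 was among the lower. In unique reads, over the same 29 genes, 7 of the 9 called genes were still 2-fold or more from the median and DDX3X and DDX21 were not.

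Removing the most-read site of each gene showed how much 1 site carried, and the ratios were centred here and below on the median of all genes with their sites kept. DDX47 went from 2.80 to 0.02 and DHX8 from 1.84 to -0.05, so the call of each rested on its leading site. DDX21 went from 1.02 to 1.38, with 478 parental and 1359 KO cytoplasmic reads left. Of those 1359 reads, 931 lay in 1 further 3'UTR site listed in the KO cytoplasm alone. The value of 1.38 thus rested largely on that site and does not show that its other sites differed. DDX18 went from -1.40 to -1.13, but 2589 of its 2727 parental and 1062 of its 1131 KO cytoplasmic reads lay in the leading site, and the remainder was 138 and 69 reads. DDX3X was at -0.80. Without these sites 2 helicases were higher and 7 lower among 26, against 16.0% and 19.5% of the genes left when every gene lost its most-read site. In exonic classes alone, 13 helicases were tested, with 4 higher and 6 lower, against 22.3% and 18.9% of all genes. All genes had an exonic median of 0.77 before centring, and without centring the split was 5 higher and 2 lower, against 42.4% and 7.12% of all genes. DHX33 (log2 2.80) and DDX60L (log2 2.08) joined DDX47 and DHX8 as higher, and DDX3X was lowest (log2 -2.41). DHX33 rested on 160 KO against 12 parental exonic reads, with 118 of the 160 in 1 site, and DDX60L on 89 against 11. In introns alone, 24 were tested, with 1 higher, DDX60L (log2 1.06), and 2 lower, DHX33 (log2 -1.74) and DDX60 (log2 -1.43), against 14.9% and 14.1% of all genes. The intron median of all genes was -0.70, and without centring no helicase was 2-fold higher (DDX60L was at 0.36) and 8 were lower, against 5.89% and 36.4% of all genes. DHX33 had opposite signs in exons and introns with and without centring, on the few parental exonic reads given above.

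In the KO nucleus relative to the parental nucleus, 36 helicases were tested, with 2 (5.56%) called higher and 5 (13.9%) lower, against 13.1% and 13.4% of 7303 genes. Their median was -0.08. DHX29 (log2 1.31, 0.96 to 1.67) and DDX18 (log2 1.19, 0.94 to 1.44) were higher, and DHX36 came next at 0.96, below the 2-fold limit. DDX39A (log2 -2.90, -3.95 to -2.00), DDX55 (log2 -2.36, -3.12 to -1.67), DHX33 (log2 -1.45), DDX42 (log2 -1.40) and DDX10 (log2 -1.27) were lower. DDX39A rested on 11 against 96 reads and DDX55 on 20 against 120. DDX18 was at 0.35 and DDX42 at -0.83 without their most-read sites, and DDX39A and DDX55 had no value left. Of the 32 helicases with a value 3 were then higher and 4 lower, against 13.1% and 11.9% of all genes without their most-read sites. In exonic classes alone 4 were tested, with 1 higher, DDX18 (log2 3.34), and 1 lower, DDX52 (log2 -1.18), against 21.2% and 20.4% of all genes. In introns alone 35 were tested, with 1 higher, DHX29 (log2 1.56), and 4 lower, DDX39A, DDX42, DHX33 and DDX10, against 12.1% and 13.3% of all genes, and without centring 1 was higher and 6 were lower, against 9.71% and 16.3%. In unique reads 5 of the 7 called genes stayed past 2-fold, and DHX33 and DDX18 (0.94) did not.

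In the parental cytoplasm relative to its nucleus, 37 helicases were tested, with 3 (8.11%) called higher and 12 (32.4%) lower, against 23.5% and 16.9% of 7480 genes. The higher genes were DDX6 (log2 4.49, 4.05 to 4.96), DDX18 (log2 3.66, 3.45 to 3.88) and DDX21 (log2 1.90, 1.71 to 2.09). DDX6 lies for the most part in an empty segment, and without it 36 were tested, with 2 higher. The lowest were DHX34 (log2 -3.63, -4.67 to -2.75), DDX55 (log2 -3.13), DHX37 (log2 -2.49), DHX30 (log2 -2.49) and DDX11 (log2 -2.12). Also called lower were DDX27, DDX23, DDX42, DDX31, DDX47, DHX57 and DDX10, between -1.80 and -1.12. Ribosome biogenesis helicases gave 2 of the higher and 6 of the lower genes among 12 tested, so the group had no single direction. Without centring the split was 3 higher and 17 lower, against 16.5% and 32.0% of all genes. Without each gene's most-read site, 2 were higher and 6 lower among the 30 genes that still met both conditions for testing. DDX18 was then at -0.64, DDX21 at 0.62, DDX23 at -0.75, DDX42 at -0.90 and DHX57 at -0.96. No value was left for DHX34, DDX55, DDX11 and DDX27. DDX11 still had 17 reads in the parental cytoplasm and 76 in the nucleus, together below the minimum for testing. At 3.06 against 21.5 RPM it remained lower in the cytoplasm. The same removal for all genes left 15.5% higher and 17.5% lower. In exonic classes alone 7 were tested, with DDX18 (log2 4.38), DHX36 and DDX21 higher and DDX19B and DDX52 lower, against 29.7% and 30.1% of all genes, whose median before centring was 2.15. Without centring the split was 5 higher and 0 lower, against 72.7% and 6.68%. In introns alone 31 were tested, with 3 higher and 10 lower, against 9.79% and 14.6% of all genes, whose median was -0.98, and without centring 1 was higher and 20 were lower, against 2.23% and 48.8%. The intron reads of DDX21 (log2 -1.16) were among the lower, opposite to its exonic reads (log2 1.58). In unique reads all 15 genes called in all classes stayed past 2-fold.

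In the KO cytoplasm relative to its nucleus, 31 helicases were tested, with 6 (19.4%) called higher and 15 (48.4%) lower, against 32.0% and 24.7% of 7498 genes. DDX21 (log2 3.46, 3.24 to 3.69), DDX39A (log2 2.81), DHX33 (log2 2.18), DDX47 (log2 1.78), DDX18 (2.21-fold) and DHX8 (log2 1.02) were higher. DDX19A (log2 -3.20, -4.00 to -2.48), DDX11 (log2 -2.72), DDX60 (log2 -2.64), DHX57 (log2 -2.19) and DDX23 (log2 -2.17) were lowest, and 10 more genes, among them DHX9 (log2 -1.02) and DDX58 (log2 -1.12), were lower. Without centring the split was 4 higher and 18 lower, against 24.6% and 38.6% of all genes. DDX18 at 0.62 and DHX8 at 0.49 were then no longer among the higher, and DDX10, DDX3X and DHX29 joined the lower. Without their most-read sites DDX18 was at -2.05, DDX47 at -0.78 and DHX8 at -0.87, each on the other side of the median, DHX33 was at 0.74 and DDX21 at 2.54, so that 2 were higher and 15 lower among 29 genes, against 22.0% and 29.6% when all genes lost their most-read sites. Centred on the genes so left, whose median was -0.90 before centring, 3 were higher and 11 lower, against 27.7% and 18.7%. In exonic classes alone 9 were tested, with none higher and 6 lower, among them DDX17 (log2 -1.93), against 27.1% and 28.6% of all genes, whose median before centring was 2.67. Uncentred, 5 were higher and 0 lower, against 81.9% and 3.24%. DDX17 itself had more exonic RPM in the cytoplasm (279 against 168), so its sign depends on the centring. In introns alone 28 were tested, with 3 higher, DDX39A, DDX24 and DDX60L, and 8 lower, against 15.6% and 14.6% of all genes, whose median was -1.60, and without centring 1 was higher and 23 were lower, against 3.02% and 74.8%. In unique reads 19 of the 21 called genes stayed past 2-fold, and DDX1 (-0.75) and DDX18 (0.95) did not.

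**Figure D4:**
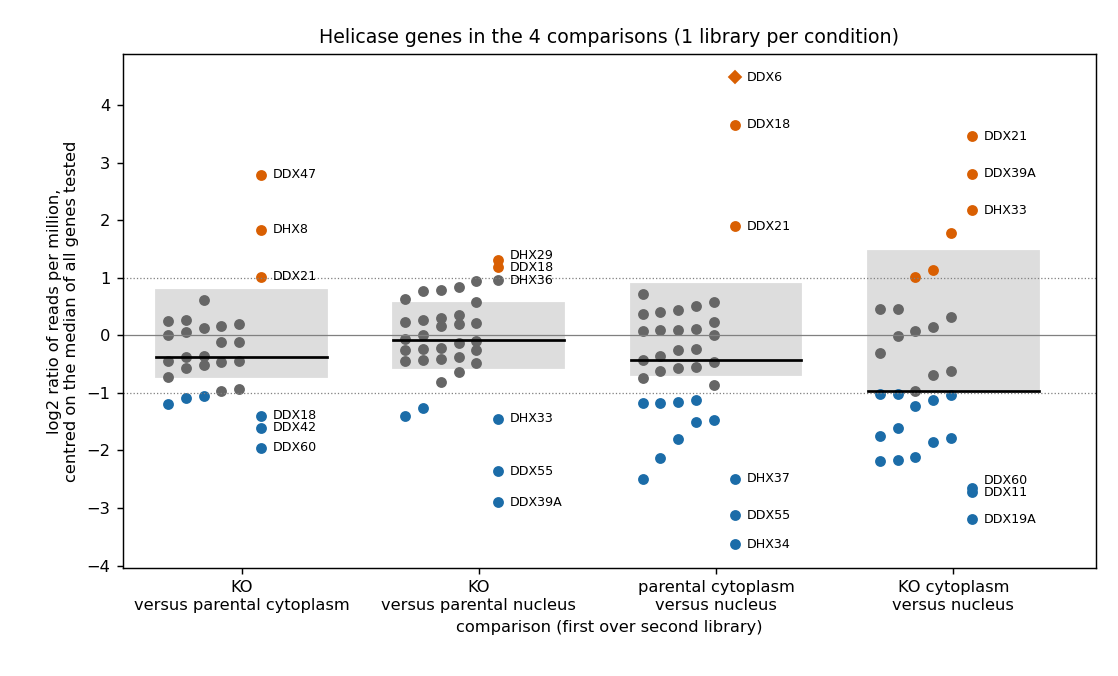
Centred log2 ratios of RPM (y axis) of the helicases tested in each of the 4 comparisons (x axis), with the quartiles of all genes as grey boxes, the median of the helicases as black bars, the 2-fold limits as dotted lines, and colour for genes called higher (orange) or lower (blue). The median of the helicases was -0.38, -0.08, -0.42 and -0.97, and DDX6, drawn as a diamond, has most of its clusters in an empty segment.

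**Figure D5:**
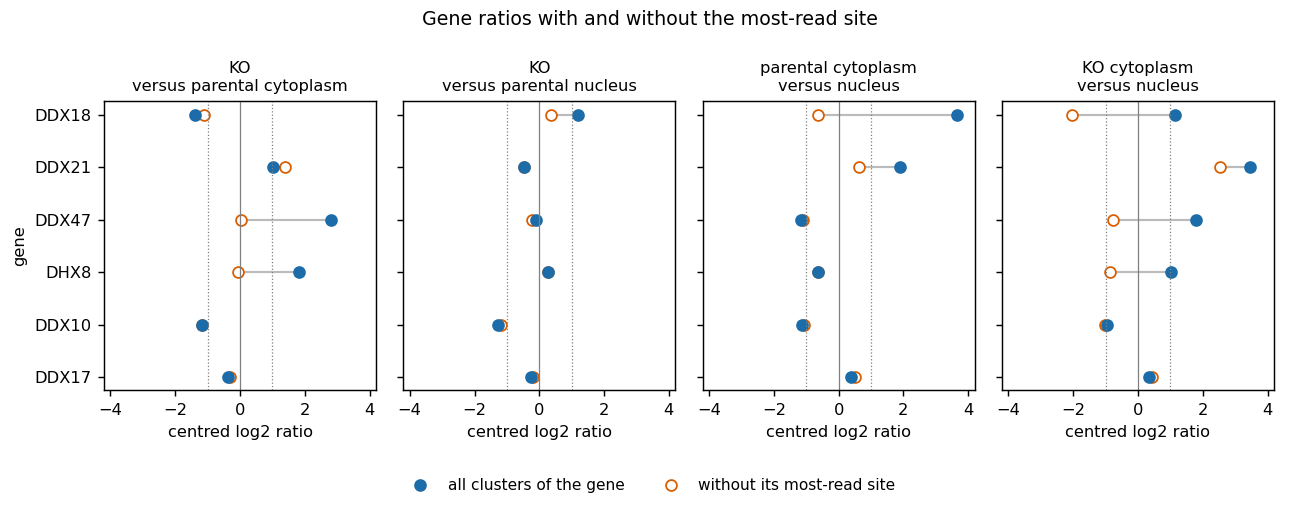
Centred log2 ratio (x axis) of 6 genes (rows) in the 4 comparisons (panels), from all clusters of the gene (filled) and without the site that had its most reads (open). DDX47 moved from 2.80 to 0.02 in the KO versus parental cytoplasm and DDX18 from 3.66 to -0.64 in the parental cytoplasm versus nucleus, whereas DDX10 and DDX17 moved little.

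Merging overlapping clusters of the 4 libraries gave 1456 helicase sites. Of these 1079 (74.1%) were found in 1 library, 244 (16.8%) in 2, 95 (6.52%) in 3 and 38 (2.61%) in all 4. Merging all clusters in the same way gave 592021 sites, with 77.4% in 1 library, 15.5% in 2, 5.46% in 3 and 1.68% in all 4. The 38 lay in 19 genes, 33 in introns and 4 in 3'UTRs, and held 20.2% of all helicase reads, against 19.6% of reads in such sites over all clusters. Sites of both cytoplasmic libraries and neither nuclear one numbered 52 (3.57%), against 3.84% of all merged sites. Of these, 16 (30.8%) lay in 3'UTRs, against 27.6% of all merged sites of that kind, and 30 (57.7%) in introns, against 44.8%. DDX21 had the most of them. Those of both nuclear libraries alone numbered 50 (3.43%), against 2.41%, with 44 (88%) in introns, against 72.3%, and were led by DDX10. All merged sites include sites assigned to no gene, which helicase sites never are, so these class shares do not compare like with like.

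Between the cytoplasmic libraries, 25.2% (21.8 to 28.9) of parental helicase clusters overlapped a KO cluster, against 25.5% of all clusters, and 28.3% did without the empty segments. In 3'UTRs the share was 32.9% (23.9 to 43.5), or 40.6% without those segments, against 48.0% of all 3'UTR clusters. Of 25 helicase clusters with at least 100 reads, 14 (56.0%) were shared, but outside the segments it was 14 of 16 (87.5%), against 80.3% of all clusters of that depth. From the other side, 35.7% (31.2 to 40.5) of KO cytoplasmic helicase clusters overlapped a parental one, against 28.9% of all. In the nuclei, 23.9% (20.5 to 27.7) of parental and 26.3% (22.6 to 30.4) of KO helicase clusters overlapped, against 18.9% and 19.0% of all clusters.

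Helicase sites held C runs about as often as other sites. The word CCC was in 39.2% (35.3 to 43.3), 39.7% (35.0 to 44.5), 44.6% (40.4 to 48.8) and 42.4% (38.1 to 46.8) of helicase clusters, read on the RNA strand, against 40.0%, 40.8%, 45.4% and 45.1% of all clusters. Any of the 6 words that start with A or T, go on with A, C or T and end in CCC, and so also count as CCC, was in 26.9%, 30.5%, 30.8% and 31.7%, against 29.8%, 30.1%, 32.9% and 33.6%. In 3'UTR sites of the KO cytoplasm CCC was in 21.3% (12.9 to 33.1) of 61 helicase clusters, against 36.5% of all. The same shares were 34.1% of 85 against 34.8% in the parental cytoplasm, 37.5% of 32 against 46.3% in the parental nucleus and 57.7% of 26 against 45.9% in the KO nucleus, so the libraries had no common direction. The leading DDX21 site printed above has no CCC. Among the intron sites printed above, those of DDX11, DDX18 and DHX15 and the second of DDX17 hold several runs, and the other DDX17 intron sites hold a single one.

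Intron sites of helicases lay near annotated 3′ splice sites at a higher share than intron sites in general, although in the KO cytoplasm the interval reached the share of all sites. Distances were to the next exon of any annotated transcript, so a site could lie far from the end of its canonical intron. Within 50 nt of such a splice site were 15, 8, 19 and 17 helicase intron clusters. These were 3.49% (2.13 to 5.68), 2.79% (1.42 to 5.40), 4.05% (2.61 to 6.24) and 3.94% (2.48 to 6.23) of them, against 1.46%, 1.57%, 2.16% and 2.37% of all intron clusters. Intron length and the number of annotated exons were not matched between helicases and all genes, so the shares are a description only. The counts are small. Among them were a site of DDX17 intron 11 at 38 nt with 112, 94, 266 and 38 reads, and one of DDX46 intron 12 at 29 nt with 18, 32, 84 and 28 reads. The splice site beside the DDX17 site lies inside canonical intron 11 and not at its end. A site of DHX15 intron 12 at 11 nt had 26, 81 and 52 reads in the KO cytoplasm, parental nucleus and KO nucleus.

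For comparison, 19 of 21 listed RNA helicases whose names lie outside the DDX and DHX pattern had 336, 308, 320 and 340 clusters. The lists were split by gene name and not by protein family. The 3'UTR share of reads of the other helicases was 27.0%, 33.9%, 4.65% and 2.83%, below that of the DDX and DHX genes in every library. Of 14 tested in each of the 4 comparisons, 2, 0, 2 and 2 were called higher and 3, 1, 3 and 2 lower. Over all genes 20.2%, 13.1%, 23.5% and 32% were called higher and 17.4%, 13.4%, 16.9% and 24.7% lower. The medians of these other helicases were 0.06, -0.30, -0.31 and -0.41. Whether the lists differ cannot be tested with 1 library per condition.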

How the data were processed

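HNRNPK PAR-CLIP clusters of 4 libraries were used, 1 per condition, with groups taken from the labels. The 17 RNA-seq samples were not analysed here. Per the study's methods, reads were demultiplexed with bcl2fastq 2.20.0, identical reads were collapsed before adapters and molecular identifiers were removed, reads were aligned to hg19, and clusters were called by PARalyzer within PARpipe, for each library separately. The aligner's settings are not given in the sources used here. The authors deposited raw counts of reads, unique reads and conversion locations per cluster, not normalized. Columns that the authors deposited as a fraction, a mode score or a log10 value went unused. The labels also list hg38, but 2003 of 2004 helicase clusters equalled GRCh37 at their positions. GENCODE v44lift37 matched 52 of 52 genes, 2 through an older symbol, and gave introns, exons and splice sites.

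Reads of clusters were summed per gene and divided by the library's cluster reads. Ratios were centred on the median of all genes tested (at least 100 reads in the pair, 2-fold for a call), with exact conditional 95% intervals. Shares have 95% Wilson intervals. All intervals cover counting error only. Clusters overlapped where they shared 1 nt on the same strand. Segments empty in 3 libraries were found from cluster positions. Sequences were cut to 30 bases at the PARalyzer mode, a choice made after most sites proved longer. Scripts ran in Python 3.11.15 with numpy 2.4.6, pandas 2.3.3, scipy 1.17.1, pysam 0.24.0 and matplotlib 3.10.9, and were tested on simulated data.

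The members, role lists and comparison list were chosen with earlier results of these data known. Genes named were the 10 with the most clusters, the 10 with the most cytoplasmic 3'UTR reads, the 3 highest and 3 lowest in each comparison, those with at least 50 coding or 5'UTR reads and those listed in 1 library. Other genes were named after their values were seen, to account for every member. Other minimum reads, unique reads, 2 conversion locations, exonic or intron classes and no centring were tried as alternatives.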

Additional observations from a re-analysis of the deposited data

Results flagged for a closer look

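DDX18 had opposite signs in the 2 fractions under the same contrast. Its centred log2 ratio for KO versus parental was -1.40 in the cytoplasm (from 2727 and 1131 reads, parental first) and 1.19 in the nucleus (197 and 384 reads), with 1 library on each side, and the difference between the fractions was not tested. The nuclear value was 0.35 without the gene's 3'UTR site and 0.94 in unique reads. DDX47 had opposite signs for cytoplasm versus nucleus in the genotypes, -1.17 in parental cells (173 and 357 reads) and 1.78 in KO cells (1310 and 286 reads), and this difference was not tested either. Without the most-read site, in exon 7, the values were -1.09 and -0.78, so the opposite signs rested on that site.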

How the results depend on the processing

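No paired analysis was possible because each condition had 1 library and the labels give no shared replicate numbers that pair them, and no replicate could be left out. Of 90 values computed with another setting 38 stayed within the counting interval, or within 1.5 times for a count, and of 34 with settings chosen after seeing the data 31 did. Taking only clusters of at least 10 reads left 305, 214, 326 and 311 helicase clusters, and taking those with at least 2 conversion locations left 269, 270, 170 and 138. The share of library reads became 0.363% and 0.316% in the parental and KO nucleus with at least 10 reads. It became 0.316% in the parental cytoplasm and 0.432% and 0.374% in the nuclei with 2 conversion locations, and 0.331%, 0.224%, 0.363% and 0.314% in unique reads. Without the library's most-read cluster in the total it was 0.324% and 0.221% in the cytoplasmic libraries, and without the genes of the empty segments, chosen after seeing the data, 0.264% in the parental cytoplasm. The 3'UTR share, in the order parental cytoplasm, KO cytoplasm and KO nucleus, was 46.9%, 49.0% and 9.75% with at least 10 reads, 49.1%, 48.5% and 11.9% with 2 conversion locations, 46.1%, 47.7% and 10.2% in unique reads and 14.8%, 15.0% and 5.35% of clusters. Without the most-read helicase cluster it was 32.8% and 40.0% in the cytoplasmic libraries, the first now below the share over all genes, which kept all of its clusters. The word TCCC in place of CCC was in 29.7%, 29.1%, 33.0% and 31.5% of clusters, and CCC was in 55.9% and 56.5% of nuclear clusters with 2 conversion locations. Overlap of parental with KO cytoplasmic clusters was 29.8% with at least 10 reads and 35.3% with 2 conversion locations, and that of KO with parental clusters 42.5% with at least 10 reads. Genes called were 9, 7, 15 and 21 in the 4 comparisons, and 5, 2, 7 and 11 with unique reads in place of reads, where fewer genes reach 100 reads. They numbered 3 in KO versus parental cytoplasm and 11 in KO cytoplasm versus nucleus in introns alone, 2, 5 and 6 in exonic classes alone for the comparisons after the first, 4 in KO versus parental nucleus with at least 200 reads, and 8 in parental cytoplasm versus nucleus without each gene's most-read site, or 6 where every gene lost that site and the median was recomputed, both chosen after seeing the data. Apart from the smaller number tested, the cause of these shifts was not tested. Clusters of fewer than 5 reads are not listed, so a missing cluster is no measure of absence, and 1 unique read made up 22.9%, 9.11%, 32.8% and 36.2% of helicase clusters, which limits what the nuclear counts can show.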

Other observations

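The helicases outside the DDX and DHX names included ASCC3, which unwinds DNA for alkylation repair and splits stalled ribosomes, with 101, 115, 75 and 117 clusters and 1453, 1922, 1028 and 1694 reads in the parental cytoplasm, KO cytoplasm, parental nucleus and KO nucleus. HELZ had 56, 35, 44 and 39 clusters. EIF4A3, the helicase of the exon junction complex, had 526, 835, 133 and 68 reads, more in each cytoplasmic than in each nuclear library, and EIF4A1, the translation initiation helicase, had 44, 49, 471 and 212 reads, the other way round. YTHDC2, a helicase that binds methylated RNA, had 380 and 81 reads in the parental and KO cytoplasm and 294 and 166 in the nuclei. None of these differences was tested.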
